A study of Mus musculus with 24 samples.

Results

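The genes described here are 10 genes tied to the two-cell-like state of mouse embryonic stem cells (mESCs). They are Zscan4c, Zscan4d, Zscan4f, Zfp352, Tcstv1, Tcstv3, Usp17lc and Tmem92, which are markers of that state, and Dppa2 and Dppa4, which encode regulators acting upstream of it. They were picked by symbol with earlier results of these data known, and all 10 have a row among the 24594 genes of the deposited count table. RNA-seq counts were available for 24 libraries of mESCs in 5 batches named A to E, and each batch held its own wild-type (WT) libraries. All cells were of 129S6/SvEvTac background, untreated, and grown with serum and leukemia inhibitory factor on gelatin. Each deletion line was 1 clone with a noncatalytic subunit of an ISWI chromatin remodeling complex disrupted with CRISPR–Cas9, so clone and deletion cannot be told apart. The lines were Rsf1Δ (2 libraries) and WstfΔ (2, gene Baz1b) in batch A with 2 shared WT libraries, Tip5Δ (2, gene Baz2a) in batch B with 2 WT libraries, BptfΔ (2) in batch C with 2 WT libraries, a line labelled cecr knock-out (3, Cecr2Δ in the study) in batch D with 3 WT libraries, and Acf1Δ (2, gene Baz1a) in batch E with 2 WT libraries.

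The blastomeres of the two-cell mouse embryo switch on a burst of genes and repeats that later cells silence. In mESC cultures a small and changing fraction of cells briefly expresses the same genes again, and such cells are called two-cell-like. The double homeodomain factor Dux drives this program in mESCs, and the SAP-domain proteins DPPA2 and DPPA4, which are made in nearly all mESCs, bind chromatin together and are needed for Dux and its targets to be activated. ZSCAN4 proteins, SCAN-domain zinc finger proteins linked to telomere lengthening and genome stability in mESCs, are the classic reporters of this state. In bulk RNA, fewer cells in the state and less RNA per such cell cannot be told apart.

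The promoters of the state's genes are shown first because the Zscan4 copies share nearly the same one. RefSeq promoter sequences of GRCm38.p6 were at hand for 5 of the 10 genes, namely Zscan4c, Zscan4d, Zscan4f, Usp17lc and Zfp352. The 250 bases before the annotated start are printed 5′ to 3′ on the strand of the gene for 4 of them. They lie at chr7:11005495-11005744 on the plus strand for Zscan4c, chr7:11166149-11166398 on the minus strand for Zscan4d, chr7:103416446-103416695 on the plus strand for Usp17lc and chr4:90218570-90218819 on the plus strand for Zfp352. Capitals mark TATAAA on the gene strand and matches on either strand to GATTNNATC, the paired half-sites within the sequence that Dux is known to prefer.
Zscan4c: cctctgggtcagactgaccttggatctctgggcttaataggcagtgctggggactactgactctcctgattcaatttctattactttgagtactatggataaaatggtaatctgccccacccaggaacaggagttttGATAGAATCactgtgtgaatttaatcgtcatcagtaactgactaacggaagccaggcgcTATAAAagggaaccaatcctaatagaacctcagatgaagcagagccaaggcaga
Zscan4d: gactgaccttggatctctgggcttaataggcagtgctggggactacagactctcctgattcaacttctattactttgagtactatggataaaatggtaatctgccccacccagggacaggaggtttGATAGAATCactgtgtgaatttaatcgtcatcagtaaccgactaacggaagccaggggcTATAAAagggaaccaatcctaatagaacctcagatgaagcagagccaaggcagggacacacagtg
Usp17lc: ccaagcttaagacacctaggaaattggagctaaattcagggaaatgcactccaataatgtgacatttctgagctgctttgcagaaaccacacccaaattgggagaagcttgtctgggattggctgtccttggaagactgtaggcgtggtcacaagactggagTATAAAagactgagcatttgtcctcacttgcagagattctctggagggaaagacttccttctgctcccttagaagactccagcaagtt
Zfp352: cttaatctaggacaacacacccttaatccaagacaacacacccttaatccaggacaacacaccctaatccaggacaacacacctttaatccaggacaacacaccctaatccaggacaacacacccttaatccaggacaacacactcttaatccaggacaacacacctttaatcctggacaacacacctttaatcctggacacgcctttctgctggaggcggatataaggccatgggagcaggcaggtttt

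The Zscan4c and Zscan4d promoters had 232 identical bases in 239 aligned, and those of Zscan4c and Zscan4f had 226 identical bases in 227 aligned. Each of the 3 Zscan4 promoters held 1 match to GATTNNATC, read as GATAGAATC on the gene strand, and 1 TATAAA downstream of it. In Zscan4c the match began 113 bases and the TATAAA 54 bases before the start. GATTNNATC was found in 3 of the 5 promoters and in 1.39% of 32851 promoters of the same length in the RefSeq table. TATAAA was found on the gene strand in 4 of the 5, the exception being Zfp352, and in 7.59% of all promoters, and the motifs did not overlap each other. The Zfp352 promoter was instead a repeat, with the word ACAACACAC present 9 times, and no other promoter of the table held that word more than once. Usp17lc and Zfp352 had no match to GATTNNATC in this window. These matches are letters in a window and were not tested for binding.

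The transcripts of these genes are also close copies of each other, which bears on how far single rows can be read. Zscan4c (gene ID 245109), Zscan4d (545913) and Zscan4f (665902) lie on chromosome 7 of mm10 from 11005745 to 11010547, 11161643 to 11166148 and 11397915 to 11402318, each next to another Zscan4 copy. In the GENCODE vM21 transcripts, those of Zscan4c and Zscan4f were 99.6% identical and those of Zscan4c and Zscan4d 97.5%. Of all 50-base windows of the transcript, 4.7% occurred in no other gene for Zscan4f, 14.5% for Zscan4c and 50.4% for Zscan4d. Usp17lc (13532; chromosome 7 from 103416696 to 103419174), a deubiquitinase of the Usp17/DUB family, had 55.3% of such windows, and its transcript was 97.8% identical to that of Usp17ld. Tcstv1 (54382; chromosome 13 from 119893387 to 119894785) and Tcstv3 (236219; chromosome 13 from 120316862 to 120318261) were 93.6% identical and had 83.2% and 68.6% of such windows. Zfp352 (236537; chromosome 4 from 90218820 to 90225687), a zinc finger gene, and Tmem92 (544806; chromosome 11 from 94777217 to 94782703), a membrane protein gene, had 92.9% and 98.0%. Dppa4 (73693) and Dppa2 (73703) lie 15982 bases apart on chromosome 16, from 48283735 to 48294292 and from 48310274 to 48319513, with 64.1% and 70.9% of such windows. How reads that match several places were counted is not given in the sources used here, so values of single Zscan4, Usp17 and Tcstv rows are uncertain. The same limit holds for the changes of Dppa2 and Dppa4, with 27.1% of the windows of Dppa2 shared with Gm9788 and 25.7% of those of Dppa4 with Gm14058. The counts of Zscan4a, Zscan4b, Zscan4c, Zscan4d and Zscan4f were therefore also summed per library to 1 Zscan4 sum, in which Zscan4d held 36.66% of the counts over the 24 libraries, Zscan4a 36.06%, Zscan4c 15.06%, Zscan4f 7.26% and Zscan4b 4.96%. The order of the leading pair differed between WT batches, with 56 counts of Zscan4a against 47 of Zscan4d in batch A and 154 against 101 in batch E, but 28 against 51 in batch C and 35 against 53 in batch D.

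Total counts were between 13.4 and 36.7 M (mega) per library, and the lowest were the 2 WstfΔ libraries. The targeted mRNA fell in Rsf1Δ, WstfΔ, BptfΔ and Acf1Δ and had a log2 fold change of -0.26 in Tip5Δ (edgeR adjusted p = 0.053). Baz1a mRNA fell with a log2 fold change of -1.72 in Acf1Δ and of -1.74 in BptfΔ (edgeR adjusted p = 2.73e-16 and 3.99e-17). In BptfΔ, Cecr2 mRNA fell too (-1.56, edgeR adjusted p = 1.49e-13). Smaller decreases of Baz1a were seen in WstfΔ (log2 fold change -0.83), Rsf1Δ (-0.64) and the line labelled cecr knock-out (-0.47). Their edgeR adjusted p-values were 1.04e-10, 8.76e-09 and 5.08e-08 in that order. In Tip5Δ the log2 fold change of Baz1a was 0.10 (edgeR adjusted p = 0.30). Lower Baz1a mRNA was therefore not limited to Acf1Δ and BptfΔ. Cecr2 mRNA was higher in the libraries labelled cecr knock-out (log2 fold change 0.37, edgeR adjusted p = 0.00015), so its RNA level went against the label. A deletion that leaves the transcript intact would not show in it, and protein was not part of these data. The study's methods state that its clones were checked by western blot and DNA sequencing. The 6 mESC markers Pou5f1, Sox2, Nanog, Zfp42, Esrrb and Tdgf1 were present in all 24 libraries, with a summed level of 2923 to 4564 CPM, which are counts relative to the library size scaled with TMM factors and are called normalized CPM here. Their sum was above that of the WT libraries of the batch without overlap in all 6 lines, from 3472 to 3571 against 3373 to 3383 in Tip5Δ to 4079 to 4094 against 3049 to 3128 in BptfΔ and 4091 to 4184 against 2923 to 3013 in WstfΔ, and its part in the results was not tested. Not every marker rose. Sox2 was lower in Acf1Δ (log2 fold change -0.35, edgeR adjusted p = 0.00029) and Tdgf1 in BptfΔ (-0.34, edgeR adjusted p = 1.51e-05). Pou5f1 had log2 fold changes of 0.05 in BptfΔ, 0.06 in Tip5Δ and -0.02 in the libraries labelled cecr knock-out. Libraries of batch C also held the RNA of Rpph1, which has no poly(A) tail, at 3288 to 4824 normalized CPM, against 0.0876 to 3.39 in all other batches.

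In WT cells the 8 two-cell genes were rare transcripts and Dppa2 and Dppa4 were abundant ones. Per kilobase of transcript, Dppa4 was at 43.7 ± 3.85 normalized CPM and Dppa2 at 33.8 ± 9.74 (SD, n = 11 WT libraries from 5 batches), while Pou5f1, the core pluripotency factor, was at 538 ± 93.6. Zscan4d followed at 0.49 ± 0.23 normalized CPM per kilobase, Zscan4c at 0.23 ± 0.18, Tmem92 at 0.18 ± 0.12, and then Tcstv3 at 0.13 ± 0.15, Tcstv1 at 0.13 ± 0.091, Zscan4f at 0.13 ± 0.077, Usp17lc at 0.11 ± 0.07 and Zfp352 at 0.045 ± 0.035. Apart from the step from Dppa2 to Zscan4d, neighbours among these 10 genes differed by less than the sum of their SDs. Both Dppa genes were above all 8 two-cell genes in every WT library. In reads, a WT library held between 30 and 166 counts for all 8 two-cell genes together, so single genes rest on few reads.

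WT batches differed in these genes before any deletion was considered. The Zscan4 sum in WT was 3.11 and 2.89 normalized CPM in batch A, 2.76 and 2.76 in batch B, 2.57 and 3.09 in batch C, 1.22, 0.943 and 1.72 in batch D, and 7.37 and 6.59 in batch E. Batch D lay below and batch E above every library of the other batches, so the lowest and the highest WT groups did not overlap (edgeR quasi-likelihood F test over the 5 batches, adjusted p = 8.01e-08). Dppa2 was also uneven among WT batches, with 50.1 and 48.4 normalized CPM in batch B and 115, 110 and 112 in batch D (adjusted p = 7.74e-09, edgeR). Of the 7 genes that could be tested, Zscan4c, Zscan4d, Tmem92 and Dppa2 differed among WT batches at an adjusted p under 0.01 (4 of 7, against 69.4% of all genes tested), and Zscan4f, Usp17lc and Dppa4 did not (edgeR adjusted p = 0.03, 0.015 and 0.016). The same 4 passed without batch C, where 54.8% of all genes did. Each line is therefore set against the WT libraries of its own batch in what follows.

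**Figure D1:**
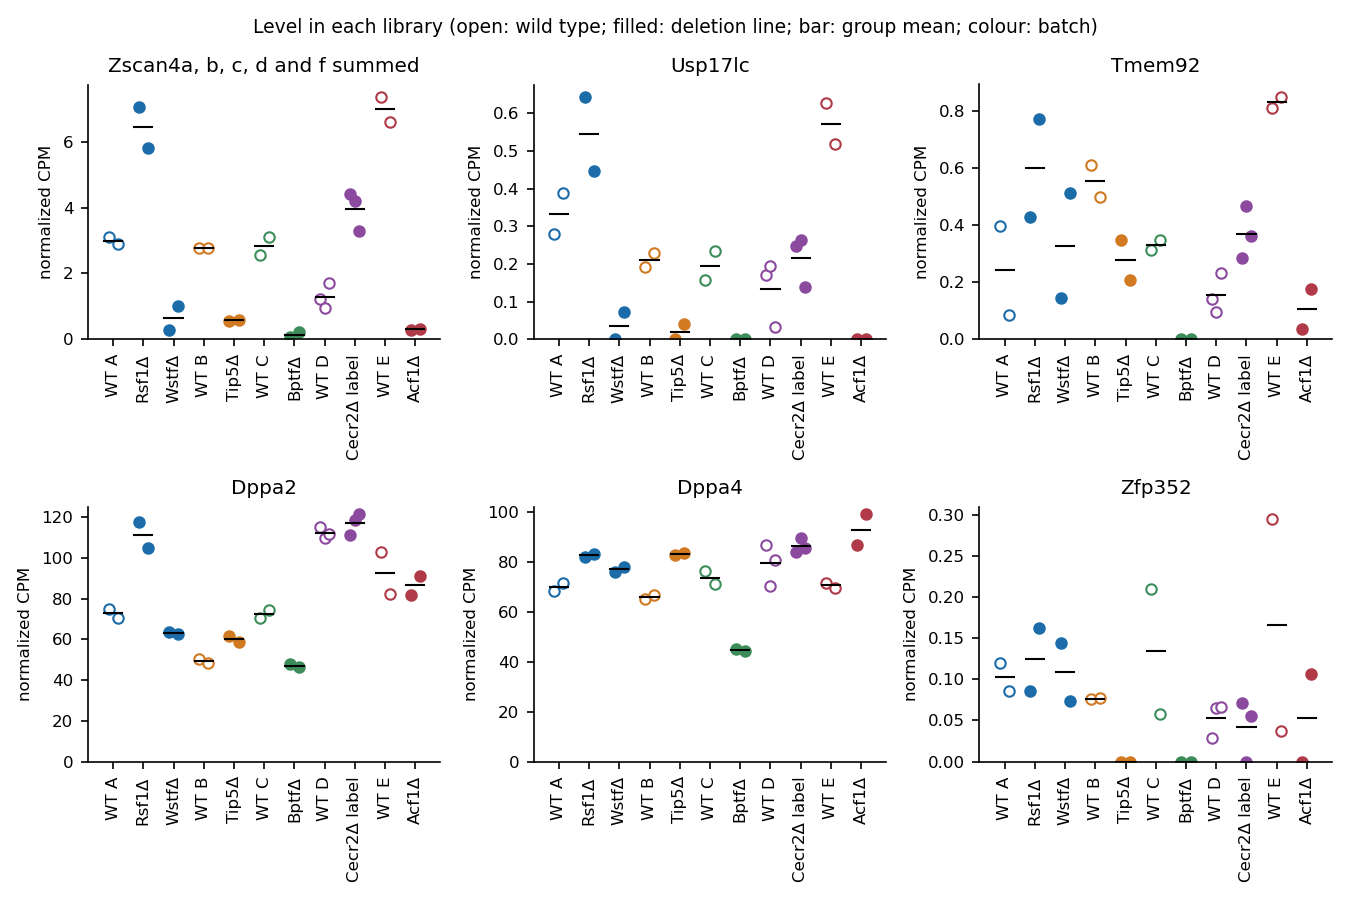
Normalized CPM (y axis, linear, from 0) of the Zscan4 sum, Usp17lc, Tmem92, Dppa2, Dppa4 and Zfp352 in each of the 24 libraries, by group along the x axis; open points are WT libraries, filled points deletion lines, bars group means and colours batches. The Zscan4 sum lies near 0.3 in both Acf1Δ libraries against 7.37 and 6.59 in WT of batch E, while Dppa2 and Dppa4 stay above 44 in every library.

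The model was fitted over all genes, and 7 of the 10 genes passed its filter on low counts, namely Zscan4c, Zscan4d, Zscan4f, Usp17lc, Tmem92, Dppa2 and Dppa4. A gene was called where the adjusted p was under 0.01 and the absolute log2 fold change over 1, with edgeR's quasi-likelihood test and Benjamini-Hochberg adjustment over 15682 genes. The calls were decreases in 3 lines, increases in 2, and none in the remaining line. The number called, with the direction, was 5 of 7 lower in Acf1Δ (background 3.32% of all genes tested called lower), 3 of 7 lower in BptfΔ (8.59%), 1 of 7 lower in Tip5Δ (2.63%) and 0 of 7 in WstfΔ (10.4% called in either direction). In the other direction, 2 of 7 were called higher in the libraries labelled cecr knock-out (0.784%) and 1 of 7 in Rsf1Δ (0.650%). All of these calls were of two-cell genes, and neither Dppa2 nor Dppa4 passed the 2-fold minimum in any line. The members share copies and a transcriptional program, so they are not independent of each other. They were also chosen with earlier results of these data known, so the shares of all genes are no independent test of these counts. Zscan4f passed the filter largely through WT of batch E, the group with which Acf1Δ is compared. In WstfΔ, 4 of the 7 genes had an unadjusted edgeR p under 0.05, and DESeq2 called 0 and gave no adjusted p for 2.

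**Figure D2:**
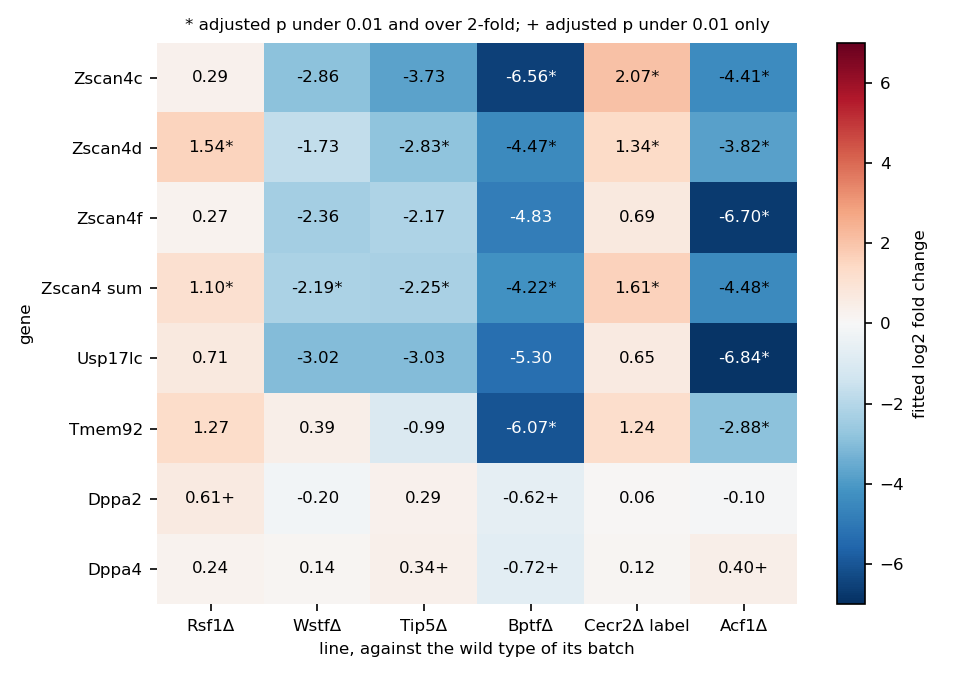
Fitted log2 fold change (colour and printed value) of 7 genes and of the Zscan4 sum (rows) in each line against the WT libraries of its batch (columns). Acf1Δ and BptfΔ are blue (lower) in every two-cell row, Rsf1Δ and the cecr label are red (higher) in the Zscan4 sum, and Dppa2 and Dppa4 lie within 1 log2 unit of 0 in all 6 lines; values of genes at 0 counts in a line depend on the model's prior count.

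Acf1Δ, which lacks the BAZ1A subunit of the ACF and CHRAC complexes, had the most two-cell genes called in the main edgeR fit, though not without its batch term. The Zscan4 sum was at 0.299 and 0.318 normalized CPM in Acf1Δ against 7.37 and 6.59 in WT. Both Acf1Δ libraries lay far below both WT libraries, and the sum fell with a log2 fold change of -4.48 (SE 0.31, with SE the standard error of the log2 fold change, and edgeR adjusted p = 1.55e-11). Zscan4d had 5 and 2 counts in Acf1Δ against 60 and 41 in WT, and its log2 fold change was -3.82 (SE 0.54, edgeR adjusted p = 2.96e-06). Zscan4c had 1 and 2 counts against 38 and 30, which is 23.1-fold lower on normalized counts (95% counting interval 7.57 to 115; edgeR adjusted p = 3.32e-05). Neither gene's groups overlapped.

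Usp17lc and Zscan4f were not seen in Acf1Δ at all. Usp17lc had 0 counts in both Acf1Δ libraries against 17 and 14 in WT, which is at least 10.5-fold lower with a floor of 3 counts over both libraries (edgeR adjusted p = 3.60e-05). Zscan4f had 0 counts in both against 17 and 11, at least 9.50-fold lower (edgeR adjusted p = 0.00089), although nearly all of its sequence is shared with other copies. Its highest levels were 0.626 and 0.407 normalized CPM in these WT libraries and 0.498 and 0.391 in replicates 1 and 3 labelled cecr knock-out. It therefore passed the filter on low counts largely through the WT group with which Acf1Δ is compared. Tmem92, whose sequence is nearly unique, had 1 and 5 counts against 22 and 23, a log2 fold change of -2.88 (SE 0.61, edgeR adjusted p = 0.00048). Without Acf1Δ replicate 2 the log2 fold change of Zscan4f was -6.69, and without Acf1Δ replicate 1 that of Tmem92 was -2.20, and the call was lost in each case. WT of batch E had the highest Zscan4 sum, and against all 11 WT libraries without a batch term none of the 5 genes was called (edgeR adjusted p between 0.016 for Zscan4d and 0.20 for Tmem92), while the Zscan4 sum still was. All 5 tested two-cell genes had every Acf1Δ library below every WT library, as did 33.3% of all genes tested.

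BptfΔ, which lacks the defining subunit of the NURF complex, showed the two-cell genes close to the detection limit of its libraries. The Zscan4 sum was at 0.0599 and 0.231 normalized CPM in BptfΔ, from 1 and 4 counts, against 2.57 and 3.09 in WT, from 49 and 53 counts. The groups did not overlap, and the log2 fold change was -4.22 (SE 0.49, edgeR adjusted p = 5.28e-08). It was -3.58 without BptfΔ replicate 1 and -5.45 without BptfΔ replicate 2, and called in both cases. Zscan4d had 0 and 2 counts in BptfΔ against 28 and 23, which is 23.97-fold lower (95% counting interval 6.30 to 203; edgeR adjusted p = 3.39e-05).

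Zscan4c had 0 counts in both BptfΔ libraries against 9 and 8 in WT, at least 5.33-fold lower (edgeR adjusted p = 0.00337). Tmem92 had 0 counts in both against 6 and 6, at least 3.76-fold lower (edgeR adjusted p = 0.00459). Both genes fell by the test over all genes, but these calls rest on few reads: leaving out either WT library or either BptfΔ library moved the adjusted p to between 0.011 and 0.029 for Zscan4c and between 0.013 and 0.035 for Tmem92, so that only Zscan4d was still called. Usp17lc had 0 counts in both against 3 and 4 (at least 2.19-fold lower, edgeR adjusted p = 0.017) and Zscan4f 0 in both against 2 and 3 (edgeR adjusted p = 0.11), and neither was called. For Zscan4f the 95% counting interval of the ratio to WT reached 1.16, so a decrease was not shown. Without the batch term Zscan4c was not called (edgeR adjusted p = 0.014) and Usp17lc was (0.0099). All 5 tested two-cell genes lay below WT in both libraries, as did 38.7% of all genes tested. Libraries of this batch had 16.8 to 18.9 M counts, and only batch A's WstfΔ libraries were shallower.

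Tip5Δ, which lacks the BAZ2A subunit of the NoRC complex, had a smaller decrease. The Zscan4 sum was at 0.569 and 0.582 normalized CPM in Tip5Δ against 2.76 and 2.76 in WT, without overlap. Its log2 fold change was -2.25 (SE 0.32, edgeR adjusted p = 8.81e-06), and it was between -2.27 and -2.23 with any 1 of the 24 libraries left out, but not called without the batch term (edgeR adjusted p = 0.034). Zscan4d was the gene called, with 4 and 3 counts in Tip5Δ against 27 and 30 in WT, a log2 fold change of -2.83 (SE 0.60, edgeR adjusted p = 0.00136). That call was lost without WT replicate 2, Tip5Δ replicate 1 or Tip5Δ replicate 2 (adjusted p = 0.013, 0.016 and 0.033). Zscan4c had 1 and 0 counts against 5 and 13 (edgeR adjusted p = 0.034), Usp17lc 0 and 1 against 5 and 6 (0.062), Zscan4f 2 and 1 against 9 and 7 (0.18) and Tmem92 8 and 5 against 16 and 13 (0.27). All 5 lay below WT without overlap, as did 32.4% of all genes tested.

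WstfΔ, which lacks the BAZ1B subunit of the WICH complex, had a lower Zscan4 sum although no single gene was called. The sum was at 0.289 and 1.02 normalized CPM in WstfΔ against 3.11 and 2.89 in WT, from 4 and 14 counts against 78 and 67. The 2 WstfΔ libraries differed more from each other than the WT libraries did, but both lay below them, and the sum fell with a log2 fold change of -2.19 (SE 0.36, edgeR adjusted p = 1.78e-05). It was -1.54 without WstfΔ replicate 1 and -3.35 without WstfΔ replicate 2, and called in both cases, but not without the batch term (edgeR adjusted p = 0.030). Zscan4d had 0 and 8 counts in WstfΔ against 19 and 28 (log2 fold change -1.73, edgeR adjusted p = 0.026), and without WstfΔ replicate 2 it was called (log2 fold change -7.63, edgeR adjusted p = 0.00105). Zscan4c had 0 and 2 counts against 13 and 14 (edgeR adjusted p = 0.024) and Usp17lc 0 and 1 against 7 and 9 (0.026). Of the 5 tested two-cell genes 4 lay below WT in both libraries, as did 40.8% of all genes tested. Tmem92 had 2 and 7 counts against 10 and 2, and its groups overlapped (log2 fold change 0.39, edgeR adjusted p = 0.70).

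Rsf1Δ and the line labelled cecr knock-out had more, not less, Zscan4 RNA than their WT. In Rsf1Δ, which lacks the RSF1 subunit of the RSF complex, the Zscan4 sum was at 7.04 and 5.82 normalized CPM against 3.11 and 2.89 in the WT libraries that it shares with WstfΔ. Both Rsf1Δ libraries lay above both WT libraries, and the sum rose with a log2 fold change of 1.10 (SE 0.21, edgeR adjusted p = 0.00022). Without Rsf1Δ replicate 1 the log2 fold change was 0.96, under the 2-fold minimum, and without the batch term the sum was not called (edgeR adjusted p = 0.27). Zscan4d had 72 and 64 counts against 19 and 28 (log2 fold change 1.54, SE 0.36, edgeR adjusted p = 0.0016) and was the gene called, though not without WT replicate 1 or Rsf1Δ replicate 1 (adjusted p = 0.045 and 0.021). Of the 5 tested two-cell genes 3 lay above WT in both libraries, as did 32.7% of all genes tested. Zscan4c had 9 and 24 counts against 13 and 14, with overlap, and Zscan4f 4 and 8 against 6 and 4, also with overlap, and Zscan4a had a log2 fold change of 1.08 (edgeR adjusted p = 0.033, not called). Tmem92 had 10 and 19 counts against 10 and 2 (log2 fold change 1.27, edgeR adjusted p = 0.10), and Usp17lc had 15 and 11 against 7 and 9 (log2 fold change 0.71, edgeR adjusted p = 0.34).

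In the libraries labelled cecr knock-out the Zscan4 sum was at 4.41, 4.20 and 3.29 normalized CPM against 1.22, 0.943 and 1.72 in WT of batch D, the batch with the lowest WT level. All 3 lay above all 3 WT libraries, and the sum rose with a log2 fold change of 1.61 (SE 0.19, edgeR adjusted p = 3.52e-07). Zscan4c had 28, 23 and 14 counts against 6, 1 and 8 (log2 fold change 2.07, SE 0.51, edgeR adjusted p = 0.0033). Zscan4d had 42, 58 and 37 counts against 20, 13 and 20 (log2 fold change 1.34, SE 0.33, edgeR adjusted p = 0.0027). Both genes rose without overlap of the groups.

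Of the 5 tested two-cell genes 3 lay above all WT libraries, as did 19.9% of all genes tested. The other two-cell genes of that line were not called. Tmem92 had 8, 16 and 13 counts against 5, 3 and 7 (log2 fold change 1.24, edgeR adjusted p = 0.066). Zscan4f had 14, 0 and 14 counts against 8, 4 and 5, with 1 library at 0 inside an otherwise higher group (log2 fold change 0.69, edgeR adjusted p = 0.45). Usp17lc had 7, 9 and 5 counts against 6, 6 and 1 (log2 fold change 0.65, edgeR adjusted p = 0.40). Against all 11 WT libraries rather than those of batch D, the Zscan4 sum of this line had a log2 fold change of 0.32 (edgeR adjusted p = 0.65), where the batch with the lowest WT level no longer sets the base. Calls on single genes here were also lost with 1 of several libraries left out. Without WT replicate 2 the edgeR adjusted p was 0.02 for Zscan4c and 0.014 for Zscan4d, without replicate 1 of the line 0.025 and 0.01001, and without its replicate 2 0.0101 and 0.021. Without WT replicate 1, Zscan4c was at 0.012.

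**Figure D3:**
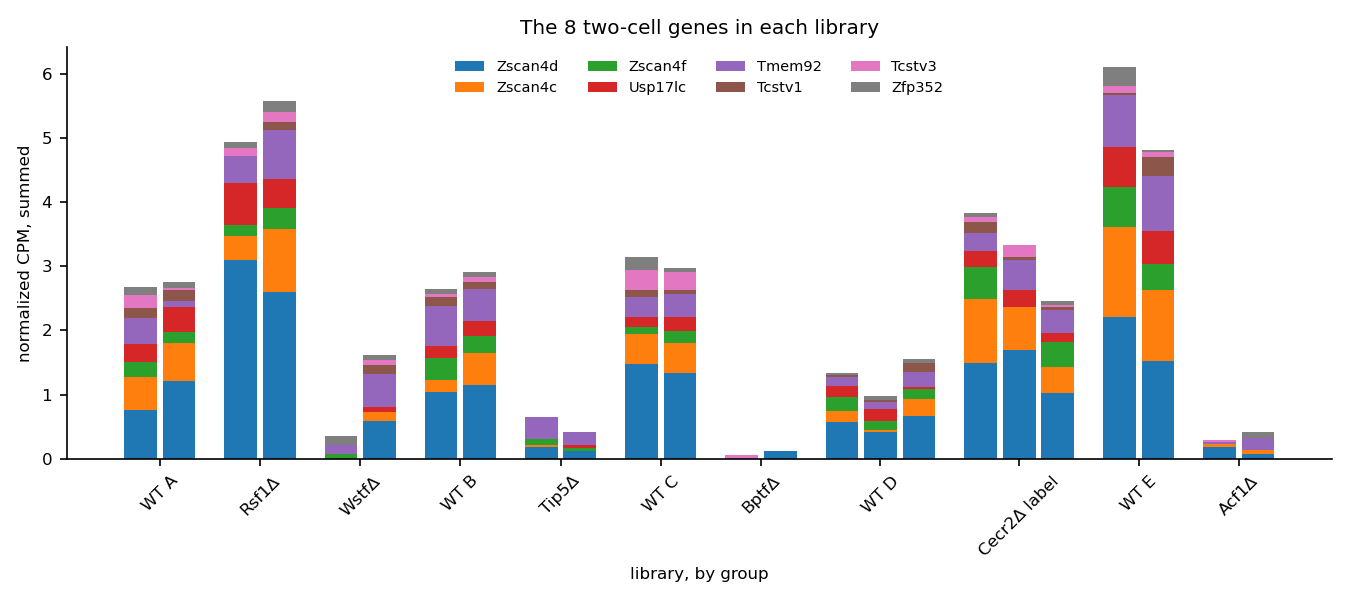
Normalized CPM of the 8 two-cell genes stacked in each library (y axis, from 0), grouped along the x axis with each line beside the WT libraries of its batch. Zscan4d is the largest part of most bars, and the summed bar is 0.0599 and 0.116 in BptfΔ, 0.299 and 0.423 in Acf1Δ and 4.94 and 5.58 in Rsf1Δ.

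Zfp352, Tcstv1 and Tcstv3 had too few counts to be tested with the rest. Zfp352 had at most 8 counts in any library, with 0 in both Tip5Δ and both BptfΔ libraries, and against 5 counts in WT the 95% counting interval of the ratio in BptfΔ reached 1.16, so a decrease was not shown. Tcstv1, an early embryo gene of the Tcstv family linked to telomere elongation, had 0 counts in both libraries of Tip5Δ, BptfΔ and Acf1Δ, against 4 and 3, 2 and 1, and 1 and 8 in WT. With the floor of 3 counts this was at least 2.10-fold lower in Tip5Δ and at least 3.05-fold lower in Acf1Δ. The 95% counting intervals reached down to 1.30-fold and 2.01-fold lower. No fold was given in BptfΔ, where WT was at 3 counts in all. Tcstv3 was at 0 in the 3 WT libraries of batch D and had 2, 6 and 1 counts in the line labelled cecr knock-out, at least 2.94-fold higher with that floor (95% counting interval from 1.93-fold). Summed, Tcstv1 and Tcstv3 had 1 and 0 counts in Acf1Δ against 4 and 10, 0 and 0 in Tip5Δ against 5 and 5, and 1 and 0 in BptfΔ against 8 and 6. None of the 3 genes passed an adjusted p of 0.01 in any line when the low-count filter was dropped (lowest edgeR adjusted p 0.037, for Tcstv1 in Acf1Δ). At these counts much larger differences than the bounds can go undetected.

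Dppa2 and Dppa4 are neighbours with related products that act as a pair, and here their RNA levels did not move in the same way in each line. In BptfΔ both fell. Dppa4 was at 45.1 and 44.5 normalized CPM against 76.2 and 71.0 in WT (log2 fold change -0.72, SE 0.082, edgeR adjusted p = 3.58e-08), and Dppa2 was at 47.9 and 46.2 against 70.4 and 74.5 (log2 fold change -0.62, SE 0.087, edgeR adjusted p = 1.08e-06). These were the only decreases of either gene that reached an adjusted p under 0.01, a level at which 20.2% of all genes tested were lower in BptfΔ.

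In Rsf1Δ Dppa2 rose, at 118 and 105 normalized CPM against 75.0 and 70.5 (log2 fold change 0.61, SE 0.081, edgeR adjusted p = 1.10e-06), while Dppa4 was at 82.1 and 83.1 against 68.5 and 71.5 (log2 fold change 0.24, edgeR adjusted p = 0.019). At an adjusted p under 0.01, 7.45% of all genes tested were higher in Rsf1Δ. In Acf1Δ the reverse was seen, in that Dppa4 rose, at 86.6 and 99.3 against 71.5 and 69.7 (log2 fold change 0.40, SE 0.075, edgeR adjusted p = 0.00013; background 15.1%), and Dppa2 was at 81.8 and 91.3 against 103 and 82.5, with overlap (log2 fold change -0.10, edgeR adjusted p = 0.34). In Tip5Δ Dppa4 rose, at 82.7 and 83.5 against 65.0 and 66.7 (log2 fold change 0.34, edgeR adjusted p = 0.0026; background 2.84%), and Dppa2 was at 61.7 and 58.9 against 50.1 and 48.4 (log2 fold change 0.29, edgeR adjusted p = 0.017).

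In WstfΔ neither passed, with Dppa2 at 63.8 and 62.9 normalized CPM against 75.0 and 70.5 (edgeR adjusted p = 0.058) and Dppa4 at 76.0 and 78.0 against 68.5 and 71.5 (edgeR adjusted p = 0.16). The same held in the libraries labelled cecr knock-out, with log2 fold changes of 0.06 for Dppa2 and 0.12 for Dppa4 (edgeR adjusted p = 0.50 and 0.14). Every change of either gene was under 2-fold. Set beside the Zscan4 sum, Acf1Δ and Tip5Δ had less Zscan4 RNA with Dppa4 raised, and BptfΔ less Zscan4 RNA with both genes lowered. No correlation is given over these 6 lines, since Rsf1Δ and WstfΔ share WT libraries.

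**Figure D4:**
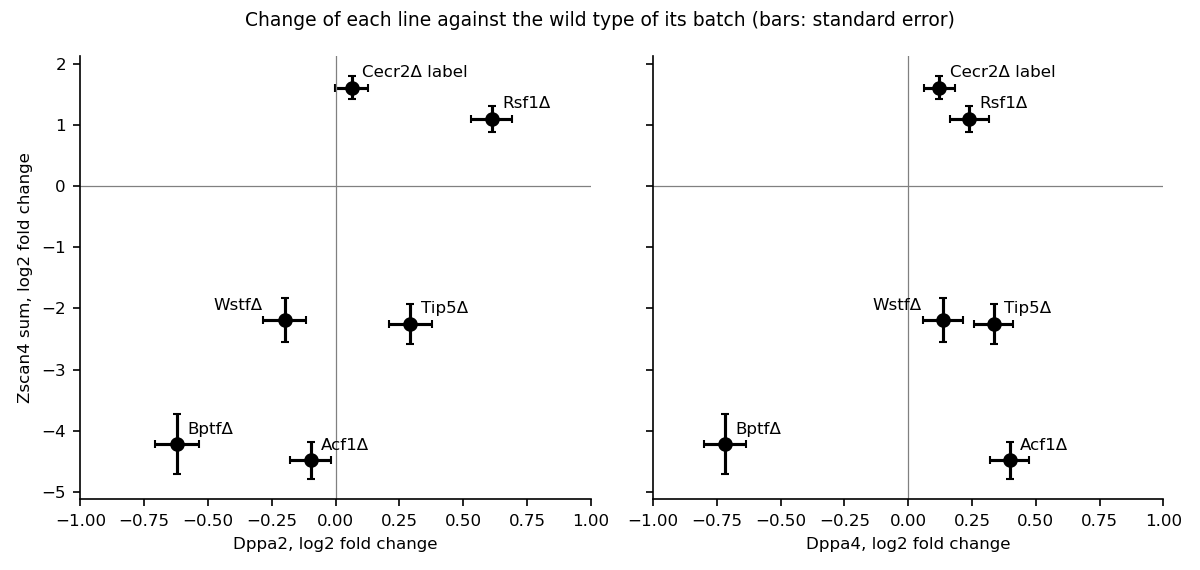
Log2 fold change of the Zscan4 sum (y axis) against that of Dppa2 (left, x axis) and Dppa4 (right, x axis) in each of the 6 lines, with bars of 1 standard error. BptfΔ is lowest on both x axes (-0.62 and -0.72), whereas Acf1Δ, at -4.48 on the y axis, lies at -0.10 for Dppa2 and 0.40 for Dppa4.

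Whether the lines differ from one another was tested directly, by an F test that all 6 responses are equal. All 7 genes passed at an adjusted p under 0.01 with edgeR, as did 65.3% of all genes tested, so that passing this test is common in these data. The Zscan4 sum had an adjusted p of 3.96e-14 in it (edgeR).

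Levels of other cell types' markers differed between lines and WT as well, and their part in these results was not tested. The 5 primitive endoderm markers Gata4, Gata6, Sox17, Sox7 and Dab2 summed to 9.77 to 10.1 normalized CPM in BptfΔ against 113 to 118 in WT, 63.6 to 68.0 in Tip5Δ against 281 to 295, 119.7 to 127 in Rsf1Δ and WstfΔ together against 278 to 279.5, and 25.5 to 29.6 in the cecr label against 81.5 to 98.0. In Acf1Δ, where the Zscan4 sum also fell, they summed to 224 to 253 against 206 to 213. The 4 trophectoderm markers Cdx2, Elf5, Eomes and Hand1 summed to between 2.87 and 8.09 over the 24 libraries. The sum was below WT without overlap in Acf1Δ (5.52 to 6.14 against 7.11 to 7.33), Tip5Δ (4.70 to 5.52 against 6.44 to 6.55), the cecr label (4.23 to 5.44 against 6.49 to 7.81) and Rsf1Δ (5.82 to 6.01 against 6.22 to 6.98), above it in WstfΔ (7.68 to 8.09), and overlapped WT in BptfΔ. Single members were called in both directions, with log2 fold changes of -2.51 in the cecr label, -1.99 in Rsf1Δ and -2.07 in WstfΔ for Hand1, -3.31 in BptfΔ for Cdx2 and 1.05 in WstfΔ for Eomes. The 4 fibroblast markers Col1a1, Col1a2, Col3a1 and Thy1 summed to between 2.54 and 31.7. The fibroblast sum was at 12.8 in both Acf1Δ libraries against 24.2 to 24.4 in WT, at 2.54 to 3.11 in BptfΔ against 7.88 to 8.50, at 17.5 to 22.2 in Tip5Δ against 31.5 to 31.7, and, where the Zscan4 sum rose, at 9.15 to 10.1 in Rsf1Δ against 18.2 to 19.0 and at 15.6 to 15.8 in the cecr label against 16.4 to 18.3. In WstfΔ it was at 17.3 to 19.8 against 18.2 to 19.0, but its members were called in both directions, with log2 fold changes of -1.49 for Col1a1, -2.28 for Col1a2, -3.91 for Col3a1 and 1.03 for Thy1. No marker of the mESC, endoderm or fibroblast lists was at 0 in all libraries of a group, except 1 of the fibroblast list in BptfΔ, and 1 of the trophectoderm list was at 0 in WstfΔ.

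Other genes of the two-cell program were read from a list that holds none of the 10 genes, but it is not separate from them. Like the 10 genes, this list was chosen with earlier results of these data known. Zscan4a, which is part of the Zscan4 sum, was 97.6% to 98.4% identical to the 3 Zscan4 genes described above, and Usp17la, Usp17lb and Usp17le were 91.5% to 93.7% identical to Usp17lc, so reads may be shared. Of 43 genes listed, 33 had a row, 8 of these were at 0 in all 24 libraries, and 10 could be tested. Of the 10, 8 were called lower in Acf1Δ (background 3.32% called lower), 5 in BptfΔ (8.59%), 3 in WstfΔ (6.57%) and 1 in Tip5Δ (2.63%), and 2 were called higher in Rsf1Δ (0.650%) and 2 in the cecr label (0.784%). DESeq2 called 0 in Rsf1Δ and 0 in Tip5Δ, and without the batch term 1 was called in Acf1Δ, 5 in BptfΔ and 0 in the other lines. The median log2 fold change of the 10 was -4.26 in Acf1Δ and -4.34 in BptfΔ, or -3.40 and -2.22 with the 2 and 5 genes at 0 counts there set to their bound (no change for the 1 gene without one). It was -1.86 in WstfΔ, -1.40 in Tip5Δ, 0.77 in Rsf1Δ and 0.66 in the cecr label, where that of all genes tested was between -0.026 and 0.015. Gm8300, a predicted gene, was called in both directions, with log2 fold changes of -4.31 in Acf1Δ, -5.08 in BptfΔ, 1.27 in Rsf1Δ and 1.92 in the cecr label. Gm2016, another predicted gene, fell in Acf1Δ (log2 fold change -4.21), Tip5Δ (-2.87), WstfΔ (-2.81) and BptfΔ (0 against 13 counts, at least 4.07-fold lower), and Gm5662 fell in Acf1Δ (-5.17), WstfΔ (-3.82) and BptfΔ (0 against 20 counts, at least 6.27-fold lower). Fitted values below -4 come from groups with few counts. Zscan4a, listed as a transcribed pseudogene, fell in Acf1Δ and BptfΔ (log2 fold changes -4.65 and -3.61) and rose in the cecr label (1.87).

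Among the Usp17 copies beside Usp17lc, Usp17lb fell in Acf1Δ (0 against 31 counts, at least 10.5-fold lower), Usp17la fell in Acf1Δ (log2 fold change -3.32), and Usp17le fell in Acf1Δ (-3.33) and BptfΔ (0 against 14 counts, at least 4.39-fold lower). Pramel19, a Prame-family gene, fell in Acf1Δ (0 against 13 counts, at least 4.41-fold lower) and rose in Rsf1Δ (log2 fold change 2.42). Dux itself, also looked up as Duxf3, could not be matched to a row of the counts and was not analysed here.

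Genes known to restrain or assist Dux, 23 in all and also chosen with earlier results of these data known, were tested too. They include the silencing factors Trim28, Setdb1 and Kdm1a, the chromatin assembly factor genes Chaf1a and Chaf1b and the nucleolar regulators Lin28a and Ncl. Of these 23, 1 was called in any line, where between 2.72% (Tip5Δ) and 13.8% (BptfΔ) of all genes tested were, with 3.11% in the cecr label, 4.45% in Acf1Δ and 5.91% in Rsf1Δ. It was Lin28a in BptfΔ, at 354 and 349 normalized CPM against 733 and 719 in WT (log2 fold change -1.05, edgeR adjusted p = 1.94e-14). In BptfΔ 10 of the 23 were lower and 3 higher at an adjusted p under 0.01 with any fold, where 20.2% and 21.4% of all genes tested were, and in WstfΔ 7 were lower and 4 higher (18.3% and 16.4%). With any fold and either direction, 13 of the 23 passed in BptfΔ (41.6% of all genes tested), 11 in WstfΔ (34.7%), 8 in Acf1Δ (31.8%), 4 in Rsf1Δ (20.6%), 4 in the cecr label (18.4%) and 2 in Tip5Δ (9.07%). At an unadjusted edgeR p under 0.05, between 8 and 16 of the 23 differed in the 6 lines, and DESeq2 also called 1, in BptfΔ. Their median log2 fold change was between -0.17 and 0.12 in the 6 lines.

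The genes whose pattern was most like that of the Zscan4 sum were sought over all 24 libraries, after the mean of the WT libraries of the batch was subtracted on the log2 scale. Gm8300 had a Pearson r of 0.974, followed by Aurkc at 0.937, Usp17lc at 0.931, Eif4a3l1 at 0.928 and Gm5662 at 0.926. Aurkc encodes a meiotic Aurora kinase and Eif4a3l1 is a copy of an RNA helicase gene. For Dppa2 they were Nol11, Max, Mtrf1, Nat10 and M6pr (r from 0.900 to 0.925), and for Dppa4 they were LTO1, Arxes2, Mcm2, Dguok and Cct7 (r from 0.932 to 0.953), with no gene in common with the Zscan4 sum. The 24 points share lines and batches, and with Spearman's rank correlation 1 of the 5 genes remained for each of the 3 targets, so the ranking depends on the measure.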

How the data were processed

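RNA-seq of 24 mESC libraries was analysed. Alignment by the authors used QuasR 1.40.1 with Rhisat2 in spliced mode and the mm10 genome. Reads were counted over knownGene models from UCSC, and the counts were deposited as whole numbers, not normalized, beside the width of each gene. Group and batch came from the sample labels, and nothing there names separate cultures. The study's methods describe the RNA-seq replicates as independent. With 1 clone per line, p-values measure the spread between libraries of that clone and of WT. The labels name a stranded TruSeq mRNA kit and the methods TruSeq RNA v2; whether counting used strand is not given in the sources used here.

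From the counts, edgeR 4.0.16 (R 4.3.3) was run on all genes with filterByExpr, the quasi-likelihood test and the model batch plus genotype, which the study names. Grouping the filter by genotype, TMM factors, the legacy form and fitting all 24 libraries together were chosen here. Thresholds were an adjusted p of 0.01 and an absolute log2 fold change of 1. Each SE was taken as |log2 fold change| over √F. Copies were summed before the same fit. A group at 0 was bounded with a floor of 3 counts over its summed libraries, and 95% intervals cover counting error only. Folds given as at least are this floor bound, and the 95% counting interval can reach a smaller fold. Replicate libraries differed by more than sampling noise in every group (mean chi-square per gene over genes with at least 20 counts between 1.38 and 20.4).

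Symbols came from RefSeq for 24570 of 24594 gene IDs, promoters and coordinates from RefSeq GRCm38.p6, and transcripts from GENCODE vM21, aligned with Biopython 1.88. The steps were tested on simulated data. Alternatives were edgeR's newer form, DESeq2 1.42.0, other scalings and filters, own WT libraries only, no batch term, the replicate block, no fold minimum and leaving out each library. All 10 genes are named. From each wider list at most the 8 called genes with the largest change are, and for each pattern the 5 most alike genes. 1 item is not reported here. The members and lists were chosen with earlier results of these data known.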

Additional observations from a re-analysis of the deposited data

Results flagged for a closer look

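All 7 tested genes were marked because their responses differed among the 6 lines in the F test on the fit over all genes, which 65.3% of all genes tested also passed. The edgeR adjusted p-values were 1.36e-09 for Dppa2, 2.90e-09 for Zscan4d, 2.26e-08 for Dppa4, 2.09e-06 for Zscan4c, 2.90e-05 for Usp17lc, 0.000114 for Tmem92 and 0.00372 for Zscan4f. For Zscan4d the log2 fold changes ran from -4.47 in BptfΔ to 1.54 in Rsf1Δ, and for Dppa2 from -0.62 in BptfΔ to 0.61 in Rsf1Δ. Rsf1Δ and WstfΔ share their WT libraries, so their responses are not independent of each other.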

How the results depend on the processing

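The Zscan4 sum kept its direction in all 6 lines under every alternative run. Without a batch term, so against all 11 WT libraries, its log2 fold change was 1.02 in Rsf1Δ, -2.27 in WstfΔ, -2.45 in Tip5Δ and 0.32 in the cecr label, no longer called (edgeR adjusted p = 0.27, 0.03, 0.034 and 0.65). In that setting 0 of the 7 genes were called in Rsf1Δ, Tip5Δ, the cecr label and Acf1Δ (1, 1, 2 and 5 with batch), 3 were in BptfΔ as before but with Usp17lc in place of Zscan4c, the wider two-cell list had 0 in Rsf1Δ, WstfΔ, Tip5Δ and the cecr label and 1 in Acf1Δ, and the Dux regulators had 2 in BptfΔ. Its uncalled values changed sign for Zscan4f in Rsf1Δ (-0.074), Usp17lc (-0.34) and Tmem92 (-0.092) in the cecr label, Tmem92 in WstfΔ (-0.28) and Dppa2 in Tip5Δ (-0.46) and Acf1Δ (0.064). The cause was not tested. With only own WT libraries fewer genes passed the filter: 1 of 3 tested was called in BptfΔ and 1 of 4 in the cecr label, and of the wider list 2 of 3 in Tip5Δ, 1 of 2 in BptfΔ and 5 of 6 in Acf1Δ. Without a low-count filter 2 genes were called in WstfΔ and 2 in Tip5Δ. A filter of 1 CPM in at least 2 libraries left 4 of the 7 genes, 2 of them called in Acf1Δ and all 4 differing among lines, and 4 wider-list genes, called 1 in Rsf1Δ, 0 in Tip5Δ, 3 in BptfΔ and 3 in Acf1Δ. Without the fold minimum, 2 genes passed in Rsf1Δ, 2 in Tip5Δ and 5 in BptfΔ, and 4, 11, 2, 13, 4 and 8 Dux regulators in Rsf1Δ, WstfΔ, Tip5Δ, BptfΔ, the cecr label and Acf1Δ. DESeq2 called 0 of the wider list in Rsf1Δ, 1 in WstfΔ and 0 in Tip5Δ, and gave no adjusted p for 4 of its 10 genes in both WstfΔ and Tip5Δ. It called 3 of the 7 genes in Acf1Δ and gave no adjusted p for the other 2 called by edgeR, Zscan4f and Usp17lc. Scaling by library size or DESeq2's size factors and edgeR's newer form moved no count by over 1.5 times.

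Same-numbered libraries did not deviate together (correlations of -0.0672 to 0.0453), so the numbers are no pairing. With the replicate block, 1 gene was called in the cecr label, and the wider list had 1 in Rsf1Δ and 0 in Tip5Δ. The Zscan4 sum stayed called in all 6 lines, and Zscan4d in the cecr label and Tmem92 in BptfΔ were lost (edgeR adjusted p = 0.011 and 0.015).

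With each library left out in turn, the genes called ranged from 0 to 1 in Rsf1Δ, WstfΔ and Tip5Δ, 1 to 3 in BptfΔ, 0 to 2 in the cecr label and 4 to 5 in Acf1Δ. The log2 fold change of the Zscan4 sum ranged from 0.96 to 1.23 in Rsf1Δ, -3.35 to -1.54 in WstfΔ, -2.27 to -2.23 in Tip5Δ, -5.45 to -3.58 in BptfΔ, 1.43 to 1.85 in the cecr label and -4.56 to -4.40 in Acf1Δ. Uncalled values that changed sign ranged from -0.53 to 0.80 for Zscan4c and -0.26 to 0.64 for Zscan4f in Rsf1Δ, -0.76 to 1.86 for Tmem92 in WstfΔ, and -0.25 to 0.070 for Dppa2 in Acf1Δ. A lone library left in a group is assumed to vary like the others.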

Other observations

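Dppa3, which encodes the maternal and germ cell factor STELLA, was read because of the name it shares with Dppa2 and Dppa4. It was at 0.299 and 0.231 normalized CPM in BptfΔ against 4.36 and 4.38 in WT of batch C, without overlap, and fell with a log2 fold change of -4.02 (SE 0.39, edgeR adjusted p = 2.10e-09). It also fell in WstfΔ (log2 fold change -3.14), Acf1Δ (-2.15) and Tip5Δ (-1.13), with edgeR adjusted p-values of 1.10e-07, 1.24e-07 and 0.000443. In the libraries labelled cecr knock-out, where the Zscan4 sum rose, the log2 fold change of Dppa3 was -0.75 (edgeR adjusted p = 0.002), and in Rsf1Δ it was -0.41 (edgeR adjusted p = 0.17). Dppa5a, an abundant mESC RNA-binding protein gene, had log2 fold changes between -0.24 and 0.33 in the 6 lines, and none was called.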
